A study of Mus musculus with 2 samples.

Results

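The early B cell factor genes Ebf1, Ebf2, Ebf3 and Ebf4 encode the 4 members of a mouse transcription factor family, and their open chromatin was described in cultured adipocytes. DNase-seq, which marks the places where DNase I can cut because chromatin is accessible, had been run on adipocytes differentiated from 3T3-L1 preadipocytes and harvested at day 8. The single group held 2 libraries, given as biological replicates 1 and 2, of unknown sequencing depth, with no undifferentiated or other control library analysed here, so nothing was compared between conditions. The strain label read C57BL/6J, although 3T3-L1 is generally described as a clonal line from Swiss mice, and the same donor record stood behind both libraries. Nothing in the labels said that the cultures were differentiated separately, so the spread between the libraries may be technical. All peaks and hotspots (broader regions of raised cutting) were taken that overlapped the gene body extended by 100 kb on each side and whose centre lay nearest to a start site of that gene among all protein-coding genes. This gave the Ebf genes 118 of 133695 peaks in replicate 1 and 204 of 216556 in replicate 2, and 94 of 117685 hotspots in replicate 1 and 170 of 185029 in replicate 2. Merging overlapping peaks of both libraries left 217 regions of 221538 in all, of which 99 held a peak of each library and are called shared.

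Proteins of the EBF family bind DNA as dimers through a domain held by a zinc knuckle and pair through a helix-loop-helix motif. Their palindromic site is written TCCCNNGGGA, with N for any base. Ebf1 is known for specifying B lymphocytes and also promotes adipocyte differentiation. Ebf2 marks committed preadipocytes and directs the thermogenic programme of brown and beige fat, Ebf3 acts in neurons and in stromal cells, and Ebf4 is the most diverged and least studied member.

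The 4 genes differed in how much open chromatin surrounded them. Ebf1 had 64 peaks in replicate 1 and 106 in replicate 2, a mean of 85.0 ± 29.7 (SD, n = 2). Ebf2 had 23 and 54 peaks (38.5 ± 21.9), and Ebf3 had 28 and 41 (34.5 ± 9.19). Ebf4 had 3 in each library. Ebf1 had more peaks than any other member in each library and Ebf4 had fewest, while Ebf2 and Ebf3 changed places between the libraries. The SD also holds the different lengths of the 2 peak lists, so it was not used to compare genes. Hotspots had the same extremes, with 52 and 89 at Ebf1, 22 and 51 at Ebf2, 17 and 27 at Ebf3, and 3 in each library at Ebf4. Hotspots carry a −log10 q value with a ceiling of 100, reached by 26 and 38 hotspots of Ebf1, 7 and 25 of Ebf2, 7 and 13 of Ebf3 and 1 and 1 of Ebf4 in replicates 1 and 2. As shares these were 50% and 42.7% at Ebf1, 31.8% and 49.0% at Ebf2, and 41.2% and 48.1% at Ebf3, against 46.7% and 48.5% of all hotspots. In cultured cells measured in bulk, a smaller share of cells with an open site and a less open site in every cell cannot be told apart.

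**Figure D1:**
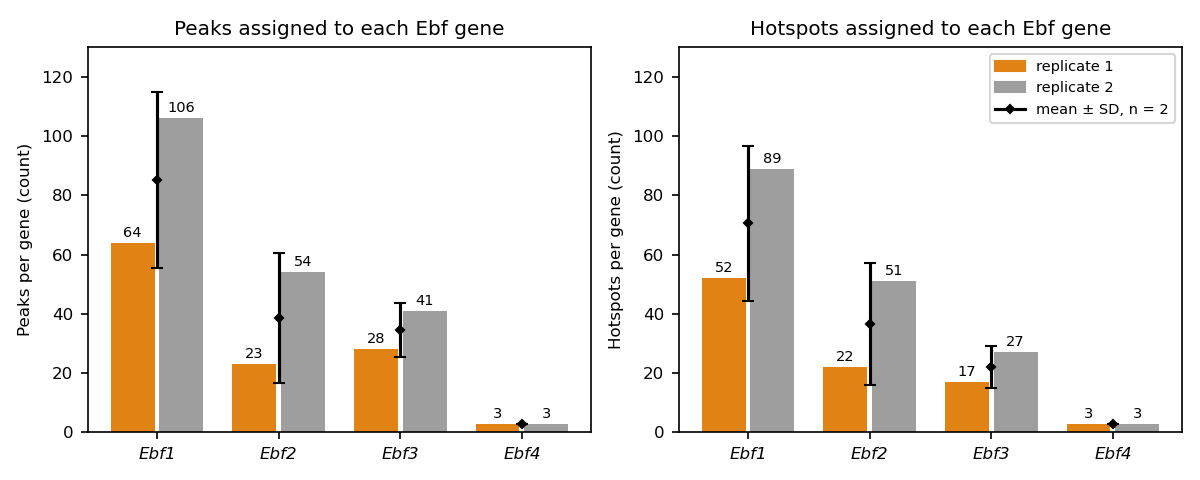
Number of peaks (left) and hotspots (right) assigned to each Ebf gene, with 1 bar for replicate 1 and 1 for replicate 2 and the mean ± SD of the 2 libraries as a diamond. Ebf1 stands highest at 64 and 106 peaks, Ebf4 lowest at 3 peaks in each library, and the bars of Ebf2 and Ebf3 overlap.

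A peak was called distal when its centre lay more than 1000 bp from every start site of a protein-coding gene. Ebf1 had 52 distal shared peaks, more than 99.9% of the 21938 protein-coding genes, and only 21 genes had more. Ebf2 had 21, more than 97.7% of genes, Ebf3 had 17, more than 96.2%, and Ebf4 had 2, more than 47.5%. The median of all genes was 2. Counted within each library, distal peaks numbered 59 and 101 at Ebf1 (80.0 ± 29.7), 22 and 52 at Ebf2 (37.0 ± 21.2), 24 and 38 at Ebf3 (31.0 ± 9.90), and 3 and 3 at Ebf4 (SD, n = 2 each). Ebf1, Ebf2 and Ebf3 thus lay far up the distribution and Ebf4 near its middle.

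Long genes far from other genes collect more peaks under this assignment, so each gene was also set beside genes with a similar territory, meaning the stretch of genome in which a peak would go to that gene. The territory was 519 kb at Ebf1, 313 kb at Ebf2 and 269 kb at Ebf3, all in the top decile of 2194 genes, whose median was 8 distal shared peaks. Ebf1 still had more than 99.2% of that decile, while Ebf2 had more than 81.3% and Ebf3 more than 73.2%. Ebf4, with a territory of 54.7 kb, had more than 35.1% of its decile, whose median was 2. Per 100 kb of territory, Ebf1 had 10 distal shared peaks, Ebf2 6.71, Ebf3 6.32 and Ebf4 3.65, against a median of 3.53 over all genes. On this scale Ebf1 passed 84.5% of genes, Ebf2 70.8%, Ebf3 68.6% and Ebf4 51.0%.

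**Figure D2:**
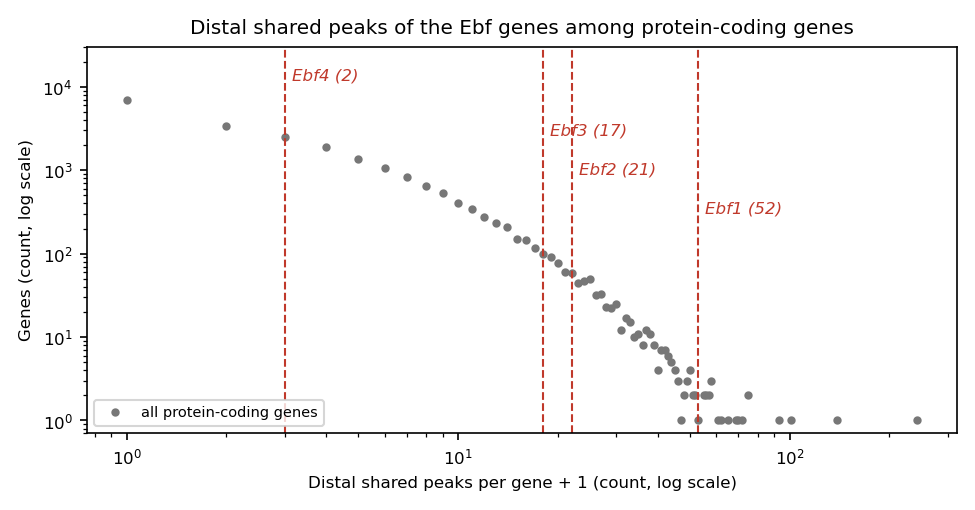
Number of protein-coding genes (y axis, log scale) with each number of distal shared peaks plus 1 (x axis, log scale), with the Ebf genes as dashed lines. Ebf1 (52) stands in the sparse tail, Ebf2 (21) and Ebf3 (17) lie on its shoulder, and Ebf4 (2) lies among the many genes with few peaks.

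Promoters of Ebf1, Ebf2 and Ebf3 were open in both libraries and that of Ebf4 was not. A promoter was counted as open when a peak of each library came within 1000 bp of a start site of the gene, which held for 3 of the 4 Ebf genes and for 57.2% of all protein-coding genes. Each peak carries a value from 1 to 150 that the authors deposited, of unknown scale, used here only to rank peaks within a library. The strongest promoter peak had values of 123 in replicate 1 and 144 in replicate 2 at Ebf1, 88 and 121 at Ebf2, and 62 and 113 at Ebf3. Among genes with a promoter peak, the Ebf1 value exceeded that of 91.0% of genes in replicate 1 and 81.8% in replicate 2. Ebf2 exceeded 36.3% and 30.8%, and Ebf3 17.4% and 25.5%, so that the promoter peaks of these 2 genes ranked below the medians of 98.0 in replicate 1 and 134 in replicate 2.

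Ebf1 (ENSMUSG00000057098.14) lies on the plus strand at chr11:44617317-45008091 in GRCm38 and spans 391 kb. Its promoter peak at chr11:44617176-44617365 was centred 46 bp before the outermost start, at percentiles 98.7 and 98.5 of the 2 peak lists, and was the highest of all 113 regions of the gene. The part of the peak before the start is shown because it is the most accessible sequence of the family, on the plus strand at chr11:44617176-44617316, with no capitals since none of the searched motifs matched.

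Ebf1 promoter: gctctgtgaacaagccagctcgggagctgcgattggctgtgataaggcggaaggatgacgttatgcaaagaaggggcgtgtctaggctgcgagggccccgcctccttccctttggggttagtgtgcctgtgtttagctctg

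Of the 5 distinct start sites annotated for Ebf1, 4 had a peak of both libraries within 1000 bp. The exception, the start of the non-coding transcript Ebf1-206 at 295 kb inside the gene, had a peak in replicate 2 alone, with a value of 75. Further shared promoter peaks had values of 54 and 115 at 0.934 kb and 42 and 87 at 5.19 kb. The widest hotspot of the gene covered its promoter in each library and measured 1815 bp in replicate 1 and 4591 bp in replicate 2.

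Beyond the promoter, Ebf1 carried its open sites mostly inside the gene. Of its 52 distal shared peaks, 44 lay in introns of the longest transcript, Ebf1-201, which has 16 exons, 1 lay upstream and 7 downstream. The distal rule used GENCODE starts. It therefore counted the intron 1 peak chr11:44619996-44620185 (values 71 and 119), which overlaps an Ebf1 promoter listed by RefSeq at chr11:44619978-44620277. Intron 6, which is 226 kb long, held 28 of them, or 53.8%, at 12.4 per 100 kb. Intron 10 held 5, and introns 8 and 15 held 3 each. The peaks were spread along the gene with a median gap of 6.31 kb, and 12 neighbouring pairs stood less than 1 kb apart.

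The strongest distal peaks of Ebf1 lay in introns 6 and 8. The peak with the highest replicate 1 value, chr11:44906596-44906745 in intron 8, 289 kb into the gene, had values of 113 and 131. In intron 6, chr11:44666876-44667025 had values of 110 and 139, and chr11:44665896-44666045, less than 1 kb before it, had 92 and 130. These sites stood at mean percentiles of 95.1, 96.3 and 91.2 of the 2 lists. The pair in intron 6, 48.7 and 49.6 kb from the start, belonged to a tight group with a further shared peak at chr11:44666236 (values 57 and 121). The 3 strongest are shown on the plus strand, with the match to the AP-1 motif TGANTCA in capitals.

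Ebf1 intron 8, chr11:44906596-44906745: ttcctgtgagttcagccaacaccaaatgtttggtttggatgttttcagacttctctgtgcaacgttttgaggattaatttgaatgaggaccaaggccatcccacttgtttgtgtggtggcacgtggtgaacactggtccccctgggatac
Ebf1 intron 6, chr11:44666876-44667025: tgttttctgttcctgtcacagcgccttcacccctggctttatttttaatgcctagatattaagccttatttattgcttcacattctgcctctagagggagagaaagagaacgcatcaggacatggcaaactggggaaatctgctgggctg
Ebf1 intron 6, chr11:44665896-44666045: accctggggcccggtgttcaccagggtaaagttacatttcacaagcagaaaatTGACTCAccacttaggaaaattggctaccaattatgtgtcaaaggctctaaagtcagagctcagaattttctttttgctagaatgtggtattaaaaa

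The distal peaks of Ebf1 ranked slightly above the typical distal peak. Distal shared peaks of Ebf1 had a median percentile of 56.6 in replicate 1 and 72.0 in replicate 2, against 48.5 and 67.3 over all distal shared peaks. A mean percentile of 75 or more was reached by 19 of 52, or 36.5% (exact binomial 95% interval 23.6 to 51.0), against 27.1% of all distal shared peaks, a share inside that interval. At Ebf2 the count was 6 of 21, at Ebf3 2 of 17 and at Ebf4 1 of 2. Over the family it came to 28 of 92, or 30.4% (interval 21.3 to 40.9), near that share. These intervals cover counting error only. Distal shared peaks of Ebf2 had median percentiles of 54.1 in replicate 1 and 70.5 in replicate 2, close to those of Ebf1.

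**Figure D3:**
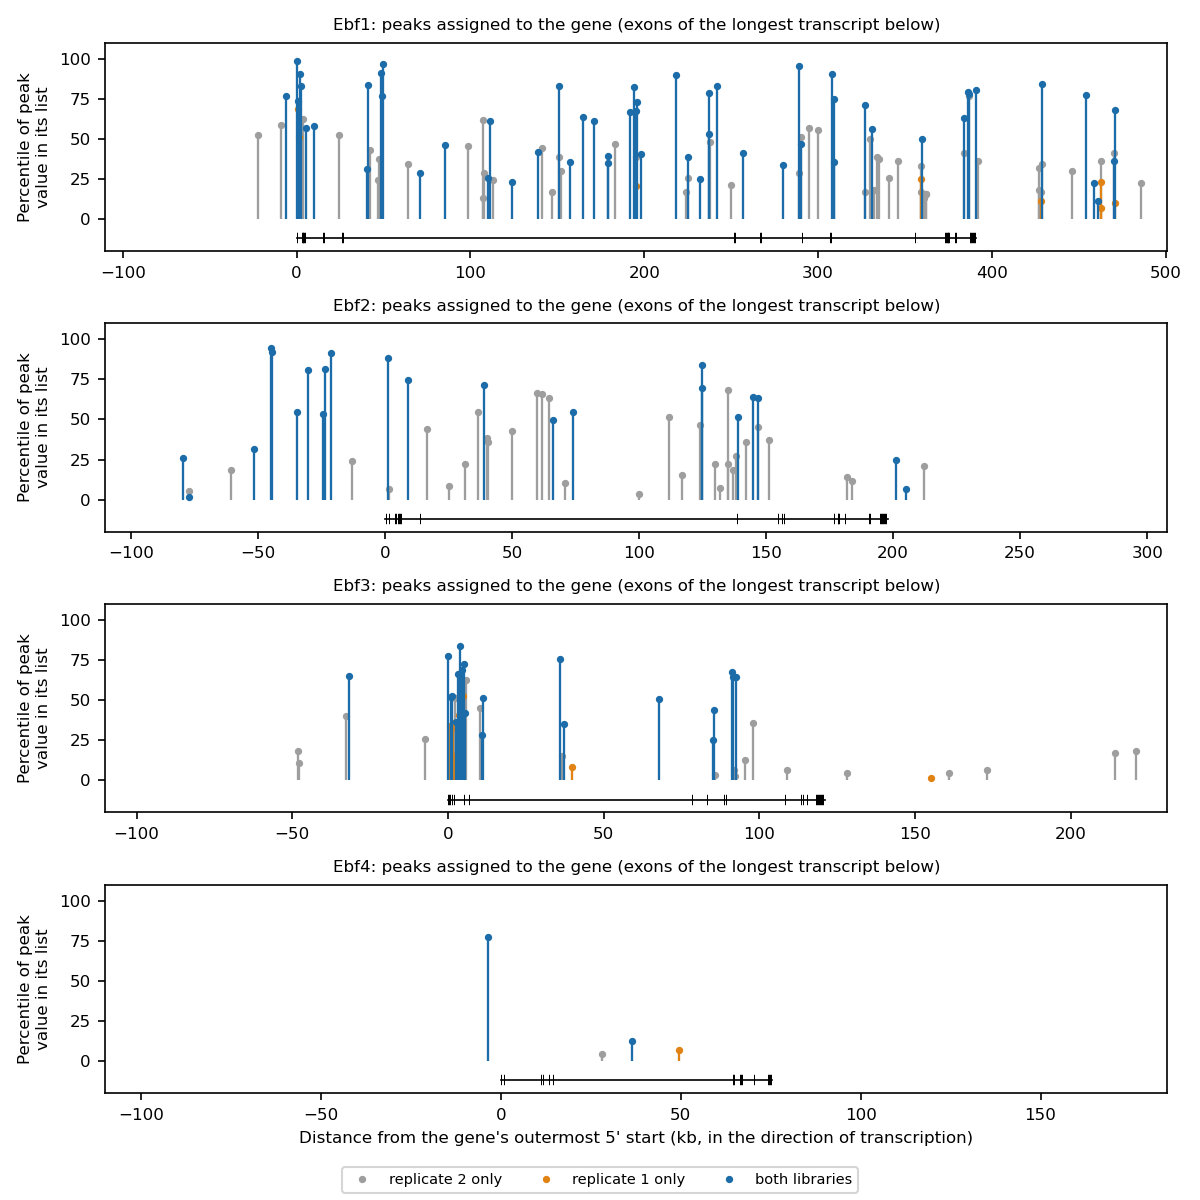
Peaks assigned to each Ebf gene by distance from its outermost start (x axis, kb, in the direction of transcription) and by percentile within the peak list (y axis, mean of both lists for shared peaks), coloured by the library that held them, with the gene body and its exons below. Ebf1 shows shared peaks along the whole gene, Ebf2 a group before its start, Ebf3 a dense group at its start and Ebf4 a single high peak at -3.50 kb.

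Ebf2 (ENSMUSG00000022053.13), on the plus strand at chr14:67233292-67430918, had much of its shared open chromatin in front of the gene. Of its 21 distal shared peaks, 10 lay upstream, 9 in introns of the longest transcript Ebf2-203 and 2 downstream. Its longest run, in which neighbouring shared peaks were less than 10 kb apart, held 8 peaks over 30.3 kb at chr14:67181716-67212025, all upstream. Of the 48060 such runs in the genome, 96.0% held fewer peaks, and the median run held 2.

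The 3 strongest distal peaks of Ebf2 all belonged to this upstream run. They were chr14:67188496-67188685 at -44.7 kb (values 101 and 136), chr14:67188736-67188965 at -44.4 kb (91 and 135) and chr14:67211856-67212025 at -21.4 kb (93 and 129). The replicate 1 values of all 3 exceeded the 88 of the Ebf2 promoter peak, and so did their replicate 2 values against its 121. Intron 7, 125 kb long, held 5 distal shared peaks, at 4.0 per 100 kb, and intron 8 held 3. The peak at -44.4 kb is shown because it joins a high value to an AP-1 match, in capitals, on the plus strand.

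Ebf2 upstream, chr14:67188736-67188965: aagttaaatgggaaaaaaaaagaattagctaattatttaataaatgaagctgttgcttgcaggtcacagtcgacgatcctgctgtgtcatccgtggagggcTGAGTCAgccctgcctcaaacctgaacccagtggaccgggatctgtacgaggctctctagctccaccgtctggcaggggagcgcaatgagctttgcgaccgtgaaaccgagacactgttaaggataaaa

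At the Ebf2 promoter the open site stood apart from the outermost start. The outermost start, that of Ebf2-201, had no peak of either library within 1000 bp. Of the 4 distinct start sites, the other 3 had peaks of both libraries in that window. The promoter peak stood at percentiles 87.6 and 89.0 of the 2 lists.

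The share of peaks found in both libraries varied among the members, with no test of the differences. All 23 replicate 1 peaks of Ebf2 were found again in replicate 2 (exact binomial 95% interval 85.2 to 100%), against 90.3% of all replicate 1 peaks. The share found again was 56 of 64 at Ebf1, or 87.5% (76.8 to 94.4), 20 of 28 at Ebf3, or 71.4% (51.3 to 86.8), and 2 of 3 at Ebf4. In the other direction, 22 of 54 replicate 2 peaks of Ebf2, or 40.7% (27.6 to 55.0), had a partner in replicate 1, against 55.5% of all replicate 2 peaks. The shares were 52.8% at Ebf1 (42.9 to 62.6) and 48.8% at Ebf3 (32.9 to 64.9), both with the background inside the interval. The Ebf3 interval for replicate 1 and the Ebf2 interval for replicate 2 end below the background. However, the intervals treat the neighbouring peaks of a locus as separate draws, so this is not a test of a difference. Unmatched replicate 1 peaks of Ebf3, such as those at 3.61 and 2.79 kb from its start, lay between shared peaks of a single run of 11.4 kb. The 2 libraries also differ in how many peaks they hold, so these shares describe these libraries only.

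Peaks found in a single library were mostly low in their lists. The 50 peaks of Ebf1 in replicate 2 alone had values between 42 and 100 with a median of 57.5, and the 31 of Ebf2 had values between 31 and 88 with a median of 50. Ebf3 had 19, between 29 and 81 with a median of 44.0. In replicate 1 alone, Ebf1 and Ebf3 had 8 peaks each, with medians of 28.5 and 34.5, and Ebf2 had none. Distal shared peaks had median values of 50 and 93.0 at Ebf1, 48.0 and 91.0 at Ebf2, and 44.0 and 91.0 at Ebf3, above those medians in the library concerned. Across distal shared peaks, Spearman's rho between the values of the 2 libraries was 0.931 at Ebf1 (52 peaks), 0.947 at Ebf2 (21) and 0.808 at Ebf3 (17), against 0.932 over all. The points of a gene share its locus and both libraries, so this describes the ranking only.

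**Figure D4:**
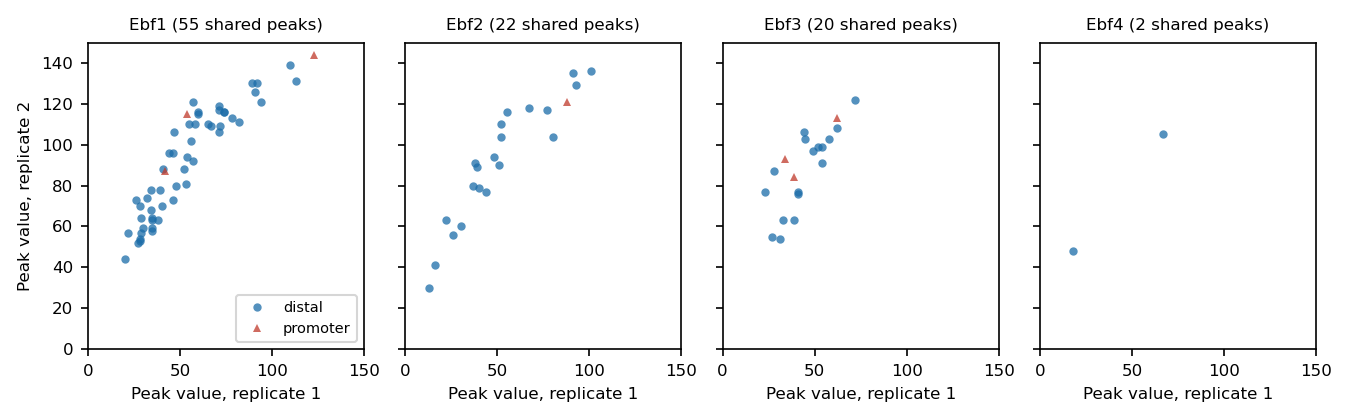
Values of the shared peaks of each Ebf gene in replicate 1 (x axis) and replicate 2 (y axis), in the authors' units of unknown scale, with distal peaks as circles and promoter peaks as triangles. Values rank alike in both libraries, the Ebf1 promoter peak is at 123 and 144, and the highest Ebf3 peak is at 72 and 122.

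Ebf3 (ENSMUSG00000010476.14), on the minus strand at chr7:137193673-137314445, had a dense group of open sites at its 5′ end and further sites inside the gene. A run of 11 shared peaks covered 11.4 kb at chr7:137303096-137314505, from the promoter into intron 6 of the longest transcript, Ebf3-204, and 98.4% of runs in the genome held fewer. Of its 17 distal shared peaks, 16 lay in introns and 1 upstream, with a median gap of 0.740 kb between neighbours, against 6.31 kb at Ebf1 and 6.39 kb at Ebf2. Introns 4 and 5, only 2.98 and 1.75 kb long, held 4 and 2. Intron 6, of 71.5 kb, held 5, of which 3 lay between 36.1 and 67.7 kb from the start. Introns 8 and 10 held 2 and 3, between 85.0 and 92.6 kb. The widest hotspot, 3049 bp in replicate 1 and 3048 bp in replicate 2, lay 3.90 kb from the start, past the promoter.

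The peaks of Ebf3 were many in a short span and typical in rank. Distal shared peaks of Ebf3 had a median percentile of 48.5 in replicate 1 and 70.5 in replicate 2, against 48.5 and 67.3 over all distal shared peaks. Its promoter peak at chr7:137314336-137314505 had values of 62 and 113, at percentiles 69.7 and 84.9, and 2 further shared promoter peaks had 39 and 84, and 34 and 93. Its strongest distal peak, chr7:137310376-137310565 in intron 4, had 72 and 122, above those promoter peaks in each library. The next were chr7:137278296-137278465 in intron 6 (62 and 108) and chr7:137309096-137309265 in intron 5 (58 and 103). The strongest distal peak is shown on the plus strand, opposite to the gene.

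Ebf3 intron 4, chr7:137310376-137310565: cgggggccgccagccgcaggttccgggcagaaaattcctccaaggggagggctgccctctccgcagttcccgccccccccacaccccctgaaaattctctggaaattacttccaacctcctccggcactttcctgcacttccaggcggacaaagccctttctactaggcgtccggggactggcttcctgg

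Start sites of Ebf3 split by position. Of 6 distinct starts, the 4 within 0.529 kb of the 5′ end had peaks of both libraries, and the internal starts of Ebf3-205 at 46.9 kb and Ebf3-207 at 87.6 kb had none within 1000 bp. RefSeq places an Ebf3 promoter at chr7:137314396-137314695 on the minus strand (GRCm38.p6), with a GC share of 77.0% and a ratio of observed to expected CG dinucleotides of 1.08, above 97.3% of the 32851 promoters in the RefSeq table, whose median was 0.384. The 250 bases before the RefSeq start, chr7:137314446-137314695, are shown in the direction of the gene, with each CG in capitals.

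Ebf3 promoter: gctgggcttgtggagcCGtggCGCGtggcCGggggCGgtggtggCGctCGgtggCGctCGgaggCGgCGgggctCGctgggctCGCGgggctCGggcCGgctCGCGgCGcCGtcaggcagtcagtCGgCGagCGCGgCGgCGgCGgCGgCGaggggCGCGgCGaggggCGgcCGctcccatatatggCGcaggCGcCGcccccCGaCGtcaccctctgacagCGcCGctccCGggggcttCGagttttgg

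Ebf4 (ENSMUSG00000053552.14), on the plus strand at chr2:130295169-130370481, had no promoter peak, and its 2 distal shared peaks equalled the median of all genes. Its 4 regions were 2 shared peaks, 1 peak of replicate 1 alone with a value of 20 and 1 of replicate 2 alone with a value of 33, the single ones both in intron 7. The stronger shared peak, chr2:130291596-130291745, had values of 67 and 105 at -3.50 kb from the start. The other, chr2:130331636-130331785 in intron 7, had 18 and 48. Neither of its 2 distinct start sites had a peak within 1000 bp in either library, and the nearest was that upstream peak.

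The surroundings of Ebf4 were open. Its window, the gene body with 100 kb on each side, held 23 peaks in replicate 1 and 36 in replicate 2, of which 20 and 33 lay nearer to the start sites of 9 other genes. The peak at -3.50 kb closed a run of 6 shared peaks over 17.9 kb, chr2:130273796-130291745, and was the only one of them assigned to Ebf4. The largest single count was that of Nop56, which encodes a core protein of box C/D small nucleolar ribonucleoproteins, with 8 merged regions, 5 of them shared. Ptpra, a receptor tyrosine phosphatase gene, had 6, of which 4 were shared. Windows of the other members held far fewer regions of neighbours. There were 12 at Rnf145 beside Ebf1, 7 at Cdca2 and 5 at Ppp2r2a beside Ebf2, and 10 at 9430038I01Rik beside Ebf3.

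The Ebf4 promoter had the base composition of a CpG island without a peak. Its RefSeq promoter at chr2:130295689-130295988 (GRCm38.p6, plus strand) had a GC share of 74.3% and a CG ratio of 0.845, above 82.9% of promoters. Of the 1234 RefSeq promoters with at least that GC share and that ratio, 721, or 58.4%, overlapped a peak of both libraries and 422, or 34.2%, of neither, against 33.7% and 61.7% of the whole table. Among promoters at least as rich in GC and CG, the lack of a peak was thus less common than a peak of both libraries, though 422 showed it. Its 250 bases before the RefSeq start, chr2:130295689-130295938, are shown beside the upstream shared peak, which holds 2 CG dinucleotides and is given without capitals.

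Ebf4 promoter, each CG in capitals: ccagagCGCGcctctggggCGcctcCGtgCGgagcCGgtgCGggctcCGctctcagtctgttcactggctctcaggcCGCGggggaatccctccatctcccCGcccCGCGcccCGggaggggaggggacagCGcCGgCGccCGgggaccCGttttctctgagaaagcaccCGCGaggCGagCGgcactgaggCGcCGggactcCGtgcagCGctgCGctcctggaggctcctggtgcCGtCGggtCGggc
Ebf4 upstream peak, chr2:130291596-130291745: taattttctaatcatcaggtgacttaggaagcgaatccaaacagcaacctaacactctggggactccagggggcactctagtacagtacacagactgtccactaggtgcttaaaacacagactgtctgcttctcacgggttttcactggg

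Matches to transcription factor motifs were few in the distal shared peaks of the family and no more frequent than in all distal shared peaks. Each consensus was searched on both strands within the central 150 bp. The EBF site TCCCNNGGGA matched in 1 of 92 peaks, or 1.09% (exact binomial 95% interval 0.0275 to 5.91), against 1.09% of all 92926 distal shared peaks. The single match lay in intron 7 of Ebf2 at chr14:67357803-67357812, in a peak 125 kb from the start with values of 52 and 104. It is shown on the plus strand, with the matched palindrome in capitals.

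Ebf2 intron 7, chr14:67357756-67357925: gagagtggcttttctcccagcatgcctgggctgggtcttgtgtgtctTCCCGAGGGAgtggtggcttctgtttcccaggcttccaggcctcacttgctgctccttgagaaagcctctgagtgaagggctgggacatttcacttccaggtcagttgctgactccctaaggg

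The peak overlapped the widest Ebf2 hotspot of replicate 2, of 1300 bp, together with a second shared peak at chr14:67358336 (values 77 and 117). With the outer base dropped on each side, the core CCCNNGGG matched in 4 of 92 peaks, or 4.35%, against 5.47% of all. No EBF match lay in the 7 shared promoter peaks of the family or in the RefSeq promoters of Ebf1, Ebf3 and Ebf4, a match that 0.904% of the promoters in the table held.

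Motifs of other factors known in adipocytes or stimulated cells gave like results. The AP-1 motif TGANTCA, bound by Fos and Jun dimers, matched in 7 of 92 peaks, or 7.61% (interval 3.11 to 15.1), against 10.2% of all, which lies inside the interval. Of these, 4 lay at Ebf1 and 3 at Ebf2. The C/EBP motif TTGCNCAA matched in 1 peak, 454 kb from the Ebf1 start and past the gene's end (values 60 and 116), or 1.09% against 4.48%, which is inside the interval of 0.0275 to 5.91. There was no match for the PPAR-RXR motif AGGTCANAGGTCA (0.0753% of all), the NFI motif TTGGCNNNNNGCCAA (0.110%) or the glucocorticoid receptor motif GNACANNNTGTNC (0.490%). For each of these, 0 of 92 allows a share of up to 3.26%, taken as 3 counts of the total (the exact binomial upper bound is 3.93%), above the background, so no difference from all peaks was detectable with this number of peaks. Consensuses may overlap in a sequence, but no distal shared peak of the family matched more than 1 of them.

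Genes around the family were set beside it in 5 lists. Proteins that work with EBF factors had open promoters in 8 of 8 genes, against 57.2% of all genes, and a median of 8.0 distal shared peaks, against 2 for all genes. Zfp423, a zinc finger protein that binds EBF factors and takes part in preadipocyte commitment, had 36 distal shared peaks (37 in replicate 1 and 74 in replicate 2). Zfp521, its relative that restrains Ebf1 in fat, had 26 (30 and 38), and Cnot3, a subunit of the CCR4-NOT complex, had 0. Only Ebf1 among the family had more than Zfp423, in a territory of 519 kb against 355 kb at Zfp423. Counts and medians of all 5 lists were not corrected for territory.

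Adipogenic transcription factors had open promoters in 12 of 12 genes and a median of 8.5 distal shared peaks. Rxra, the partner receptor of Pparg, had 36 (39 and 66), and Pparg, the central regulator of adipocyte differentiation, had 26 (35 and 70). Ebf1, with 52 (59 and 101), had more than each of the 12, while Ebf2 (21) and Ebf3 (17) fell within their range of 0 to 36. These counts take no account of territory, which was 519 kb at Ebf1 but 211 kb at Rxra and 185 kb at Pparg. Ebf1 had 10 per 100 kb of territory, fewer for its territory than Rxra or Pparg, so it led the 12 in raw count only.

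The other lists, from cell types in which EBF factors are best known, had fewer open promoters than the partner proteins and the adipogenic factors. This difference was not tested. Over all genes the share with an open promoter was 57.2% and the median was 2 distal shared peaks. B cell genes controlled by Ebf1 had open promoters in 3 of 13 genes, which were Pax5, Vpreb1 and Fcrla, and a median of 2.0 distal shared peaks. Pax5, the B cell identity factor, had 10 with an open promoter, and the kinase gene Blk had 7 without one. Cd79a, a signalling chain of the B cell receptor, had no promoter peak in either library and 0 distal shared peaks. Brown fat genes tied to Ebf2 had open promoters in 4 of 10, which were Pdk4, Ppargc1a, Cox8b and Otop1, and a median of 2.5. Pdk4, a kinase that limits glucose oxidation, had 18 and Ppargc1a, a coactivator of mitochondrial biogenesis, had 17. Ucp1, whose protein uncouples respiration for heat, and Cidea, a lipid droplet gene, had no promoter peak in either library and 3 and 8 distal shared peaks. Olfactory neuron genes had open promoters in 1 of 8 and a median of 5.0, with 10 at Rtp1, which had a promoter peak in neither library, and 9 at Adcy3, an adenylate cyclase gene, which had peaks in both. Omp, the olfactory marker protein, had a promoter peak in replicate 2 alone, and the channel gene Cnga2 in neither.

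**Figure D5:**
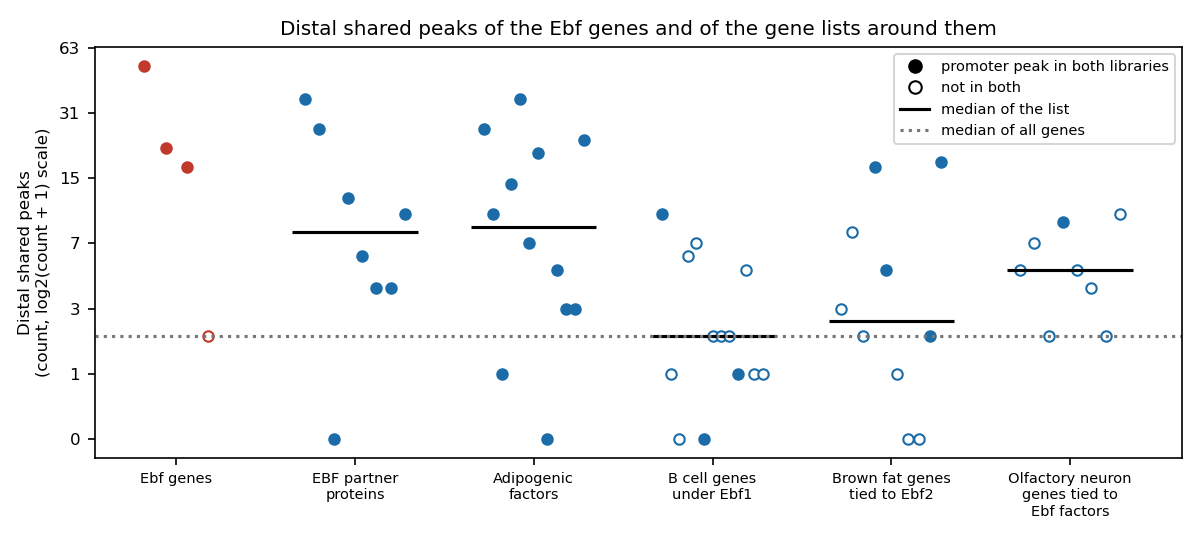
Distal shared peaks per gene (y axis, log2(count + 1) scale) for the Ebf genes, in red, and for the genes of 5 lists, in blue, filled where the promoter had a peak in both libraries. The list medians run from 8.5 and 8.0 for adipogenic factors and EBF partners to 2.0 for B cell genes, against 2 for all genes (dotted line).

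The label of the cells was checked against marker genes. Adipocyte markers had open promoters in 9 of 10 genes, with Lep in replicate 2 alone, and markers of preadipocytes and stromal cells in 4 of 6, without Dlk1 and Cd34. The stromal count is near the 57.2% of all genes. Open promoters were found in 1 of 5 B cell markers, which was Pax5, in 0 of 3 blood markers and in 0 of 4 endothelial markers. In replicate 2 alone, promoter peaks were also present at the B cell marker Cd79b, the blood markers Cd68 and Adgre1 and the endothelial markers Pecam1 and Tek. The part of other cell types in the peaks of the Ebf genes was not tested.

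Genes most like each member were taken as those with the same promoter state and the smallest summed log2 difference in distal shared peaks plus 1 and in territory, over both libraries. For Ebf1 these were Tnr (48 distal shared peaks) and Aff3 (49), and Ulk4 (21) was named for Ebf2. Pld1 and Foxo1 (17 each) were nearest to Ebf3, and Gm17364 and Il19 (2 each) to Ebf4. For Ebf1 the summed differences were 0.127 and 0.242, larger than the 0.066 or less at the other members, as few genes have so many peaks.

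Annotated non-coding genes in the windows were mostly without a peak at their start. At Ebf1, the lincRNA gene 4930597A21Rik at -31.0 kb and the unclassified Gm37695, which starts at -0.301 kb on the opposite strand, had peaks of both libraries within 1000 bp of their starts. The window of Gm37695 takes in the Ebf1 promoter peak. Such peaks were also present at the lincRNA gene Gm38409, 244 kb from the Ebf2 start, and at Snord110 and Gm24451 upstream of Ebf4. Apart from those at Gm37695, these peaks were assigned to neighbouring coding genes and not to the Ebf genes. At Ebf2, the lincRNA gene Gm20675, which starts at -0.163 kb on the opposite strand, had no peak within 1000 bp of its start. The strand of transcription cannot be read from DNase-seq, so a peak between such starts, as at Ebf1 and Gm37695, cannot be assigned to a single gene by these data, and it is called the Ebf1 promoter peak by the rule for protein-coding starts.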

How the data were processed

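The authors' deposited peak and hotspot lists of 2 DNase-seq libraries were used with GRCm38 and GENCODE M21 (mm10 per the labels). No source used here gives the aligner, the caller or the depth, so no precision could be set from depth. The deposited peak signal runs from 1 to 150 on 150 bp peaks, and the deposited hotspot −log10 q values stop at a ceiling of 100. Identical duplicate lines (20 and 33 peaks) were counted once and regions off the 21 assembled chromosomes left out.

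Shared peaks overlapped by at least 1 bp, start sites were those of all transcripts of 21938 protein-coding genes, and distances ran from region centres. Each library combined more than 1 technical replicate. With a single group no test was made, and the members were set beside all genes. Intervals are exact binomial (SciPy 1.17.1). Python 3.11.15, pandas 2.3.3 and NumPy 2.4.6 were used, and the code was tested on simulated data.

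The members and gene lists were chosen with earlier results of these data known. The text names the 4 members, the 2 neighbours per member with most regions, the 2 most like genes, the 2 genes per list with most distal shared peaks, the first 2 lacking a promoter peak in either or both libraries, all shared promoter peaks, the top 3 distal peaks and EBF matches. Cnot3 and the other genes given outside this rule were named after their values were seen. Some items that this rule gives are not reported here.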

Additional observations from a re-analysis of the deposited data

How the results depend on the processing

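Under 12 alternatives Ebf1 had the most distal shared peaks and Ebf4 the fewest, and Ebf2 stood above Ebf3 in 10. The share of genes with fewer ranged from 99.8% to 99.9% for Ebf1, 94.6% to 98.9% for Ebf2, 92.5% to 97.8% for Ebf3 and 36.6% to 56.0% for Ebf4. Of 84 recomputed values, 72 stayed within 1.5 times the value given. The stronger 50% of each list gave 30 at Ebf1, 11 at Ebf2, 7 at Ebf3 and 1 at Ebf4. Lists of equal length gave 1 at Ebf4 and hotspots 11 at Ebf3. A 20 kb extension gave 11 at Ebf2, and 12 of its replicate 1 peaks, below the Ebf3 count, since its 10 upstream distal shared peaks then fall outside. Counting 1 library alone gave 59 to 101 at Ebf1, 22 to 52 at Ebf2, 24 to 38 at Ebf3 and 3 to 3 at Ebf4, without replicate 2 and without replicate 1. The EBF core gave 4 matches in place of 1. With 1 start site per gene, Ebf2 lost its open promoter, leaving 2 of 4. Starts of protein-coding transcripts only, an alternative chosen after seeing the data, moved no value past 1.5 times. No paired analysis was possible because there is a single group. The number of peaks differs between the libraries at unknown depth, which limits every count.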
